A study of Mus musculus with 6 samples.

Results

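The set described here holds 34 genes of macrophages and of microglia, the resident macrophages of the brain and retina, out of 26147 genes in a transcript table of the embryonic mouse retina. The genes were taken by name from a list of macrophage and microglia markers, and all 34 were found. RNA came from retinas at embryonic day 13.5, on a C57BL/6J background, in 3 wild-type and 3 Tbx3 conditional knockout (cKO) libraries. In the Tbx3 cKO embryos, which were Dkk3-Cre+ and Tbx3∆Fl/∆Fl, Tbx3 was deleted by a Cre that is known to be active in retinal progenitors. The wild types were siblings that lacked Dkk3-Cre and were Tbx3Fl/+, so presence of Cre and loss of Tbx3 cannot be told apart. The sources used here do not give how many embryos were pooled or which libraries shared a litter.

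Macrophages arise from blood-forming tissue of the yolk sac and liver, not from the retina, and enter the optic cup early in development. They survive on signals through the receptor Csf1r and depend on the transcription factor PU.1, the product of Spi1. In developing neural tissue they engulf dying cells, and microglia differ from macrophages at vessels and borders in a set of genes that includes P2ry12, Sall1 and Tmem119.

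Values are normalized read counts, which are reads per gene scaled by the authors, in libraries of an estimated 21482152 to 27174646 reads. Tbx3 was 1998 to 2577 in the wild types and 40.3 to 58.9 in the Tbx3 cKO libraries. A pair of libraries stood apart for the set: wild type 1 was the lowest library in 31 of 33 genes and Tbx3 cKO 3 the highest in 28 of 33. Both also lay at the extremes for genes of several other cells, as given below. Results are therefore also given without this pair. In bulk RNA, fewer cells of a type and less RNA per cell cannot be told apart, and the same holds for more cells and more RNA.

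Most genes of the set were higher in Tbx3 cKO, while for P2ry12, Sall1, Tmem119, Siglech, Cd33, Mrc1, Gpnmb and Cd83 the groups overlapped. Together the 34 genes took 0.0134, 0.0323 and 0.031% of all normalized reads in the wild types and 0.0634, 0.0623 and 0.139% in the Tbx3 cKO libraries, so that every Tbx3 cKO library held a larger share than any wild type. Without Sall1 and the 4 genes linked to activation, which other cells also make, the remaining 29 took 0.00725 to 0.0131% against 0.0278 to 0.0513%, again without overlap. All 34 passed the filter, which asks for 10 or more in no fewer than 3 libraries, Cd14 through its Tbx3 cKO values alone, and Cd14 was therefore left out of counts and medians. Of the other 33 genes, 32 had a positive log2 fold change (Tbx3 cKO over wild type, on the log2(value + 1) scale), and Siglech a negative one. The median was 1.65, beside -0.017 over all 18914 genes tested. At an unadjusted p under 0.05 by limma, 24 of 33 were higher, where 6.39% of all genes tested were, and 0 were lower, where 7.16% of all genes were. In 25 of 33 every Tbx3 cKO library lay above every wild-type library, against 10.6% of all genes, and in 0 every Tbx3 cKO library lay below, against 11.7%.

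After adjustment over all genes none of the 33 passed limma at 0.05, where 0.0634% of all genes did, and the smallest adjusted p was 0.111, for Ctss. Without wild type 1 and Tbx3 cKO 3, 22 of 33 were higher at an unadjusted p under 0.05, where 4.01% of all genes were, and the median was 1.02. With 2 libraries against 2, 25 lay higher without overlap, where 19.6% of all genes did. Leaving out libraries cannot make separated groups overlap, so this count could not be lower than with all libraries. In the fit without wild type 1 and Tbx3 cKO 3, Apoe passed the adjusted threshold (limma adjusted p = 0.0236), where 0.219% of all genes did. The exact permutation test of 3 against 3 cannot give a p under 0.1, and every gene without overlap between the groups had that value.

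**Figure D1:**
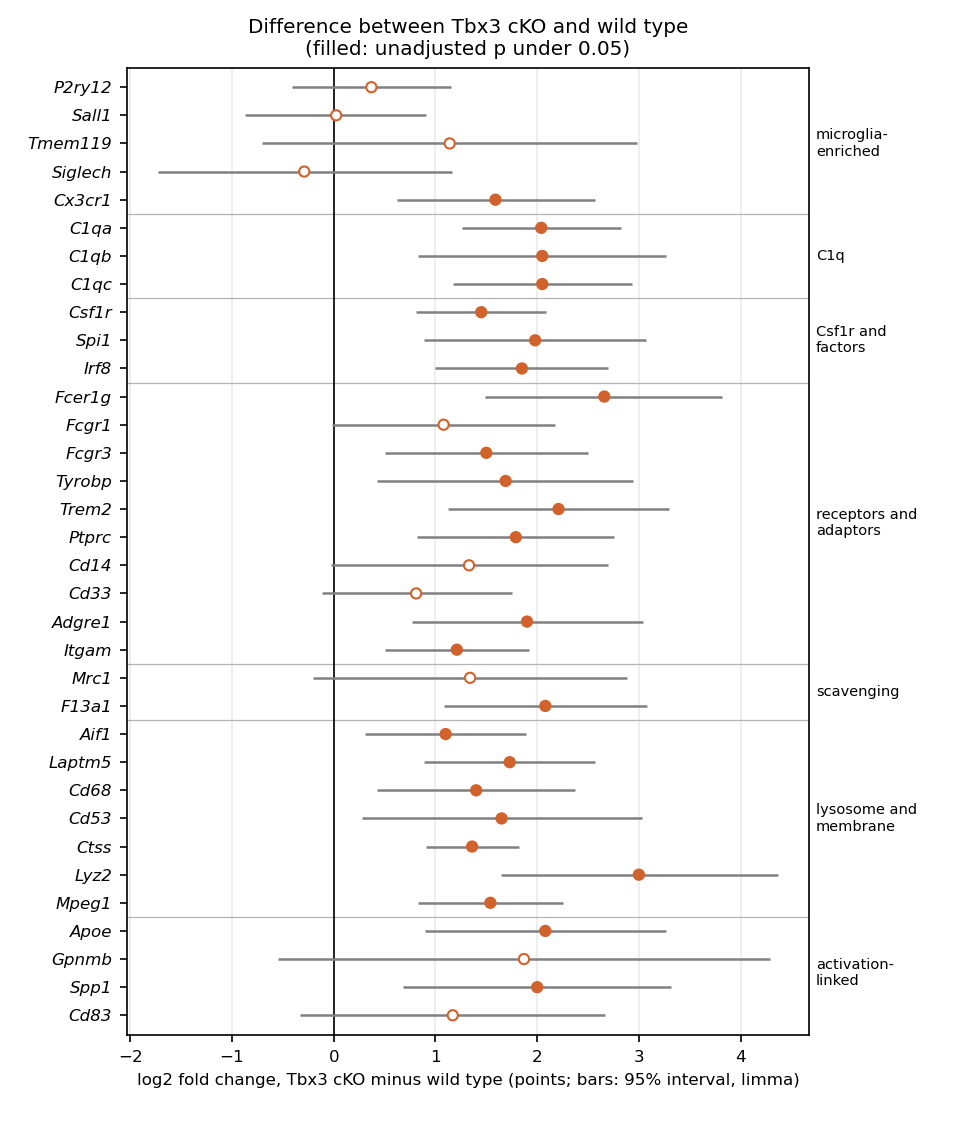
Log2 fold change of each gene, Tbx3 cKO minus wild type, with its 95% interval from limma; filled points have an unadjusted p under 0.05. The intervals of P2ry12, Sall1, Tmem119, Siglech, Fcgr1, Cd14, Cd33, Mrc1, Gpnmb and Cd83 span 0, and those of the other 24 genes lie above it.

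Among the 5 genes tied to microglia, Cx3cr1 was higher in Tbx3 cKO and the other 4 overlapped between the groups. P2ry12 (ENSMUSG00000036353), the receptor with which resident microglia sense nucleotides, had normalized read counts of 74.7, 107 and 100.5 in the wild types and 92.7, 106 and 179 in the Tbx3 cKO libraries. Tbx3 cKO 1 and 2 lay within the wild-type range and only Tbx3 cKO 3 lay above it. The log2 fold change was 0.37 (SE 0.33, 95% interval -0.41 to 1.15, limma adjusted p = 0.604). Without wild type 1 and Tbx3 cKO 3 it was -0.066.

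Sall1 (ENSMUSG00000031665) encodes a zinc finger factor that keeps microglial identity and is also made by neural progenitors and other embryonic cells. It had values of 337, 744 and 525 in the wild types and 323, 691 and 621 in the Tbx3 cKO libraries. The groups covered nearly the same range, with a log2 fold change of 0.024 (95% interval -0.87 to 0.91, limma adjusted p = 0.981). Its sign turned in several fits, among them the one without wild type 1 (-0.27).

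Tmem119, a surface marker that microglia gain as they mature, was 40.1, 218 and 46.6 in the wild types and 126, 91.0 and 389 in the Tbx3 cKO libraries. Wild type 2 lay above both Tbx3 cKO 1 and 2. Its log2 fold change of 1.14 had an interval from -0.71 to 2.98. Siglech, a lectin of microglia and of plasmacytoid dendritic cells, was 41.1, 17.9 and 18.8 in the wild types and 38.3, 18.2 and 10.5 in the Tbx3 cKO libraries. Its order ran against the rest of the set, with wild type 1 highest and Tbx3 cKO 3 lowest, and its log2 fold change was -0.29 (interval -1.73 to 1.16), turning to 0.089 without wild type 1 and 0.13 without Tbx3 cKO 3.

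Cx3cr1, the fractalkine receptor of microglia and other macrophages, was 148, 296 and 353 in the wild types and 487, 761 and 1153 in the Tbx3 cKO libraries. All Tbx3 cKO libraries lay above all wild types, with a log2 fold change of 1.59 (SE 0.41, limma adjusted p = 0.301).

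Levels were also set against genes shared by macrophages. The reference was the mean log2 level of 8 genes (C1qa, C1qb, C1qc, Csf1r, Fcer1g, Tyrobp, Laptm5 and Ctss), which was 6.06, 6.84 and 6.73 in the wild types and 8.04, 8.17 and 9.05 in the Tbx3 cKO libraries. That mean was 3.68-fold higher in Tbx3 cKO. The 8 genes were picked with earlier results of these data known and all lay higher in Tbx3 cKO, so that a gene with a small fold change lies lower on this scale by construction. Over all genes tested outside the 8, 86.5% were lower relative to them without overlap, and 0.18% were higher. Relative to Csf1r alone the shares were 80.6% lower and 0.397% higher. The relative levels are therefore given as a description.

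Relative to the 8 genes, the log2 level of P2ry12 was 0.18, -0.08 and -0.06 in the wild types and -1.49, -1.43 and -1.56 in the Tbx3 cKO libraries. The groups did not overlap, with a difference of -1.51. It was -1.39 without wild type 1 and Tbx3 cKO 3. Relative to Csf1r alone, P2ry12 was -1.98, -1.92 and -2.02 in the wild types and -3.31, -2.81 and -3.05 in the Tbx3 cKO libraries, a difference of -1.08.

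Of the 25 counted genes of the set outside the 8, 16 overlapped between the groups on this relative scale, 0 were higher without overlap and 9 were lower (P2ry12, Sall1, Siglech, Fcgr1, Cd33, Itgam, Aif1, Cd68 and Mpeg1). Relative to Csf1r alone, P2ry12, Sall1, Siglech and Cd33 were lower without overlap, and C1qa, C1qc, Fcer1g, F13a1 and Lyz2 were higher. Within the 8 genes, against the mean of the other 7, the difference was 0.89 for Fcer1g, 0.20 for C1qc, -0.59 for Ctss and -0.49 for Csf1r, with no overlap in any. For the factors Spi1 and Irf8 the difference relative to the 8 genes was 0.10 and -0.029, and their groups overlapped.

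**Figure D2:**
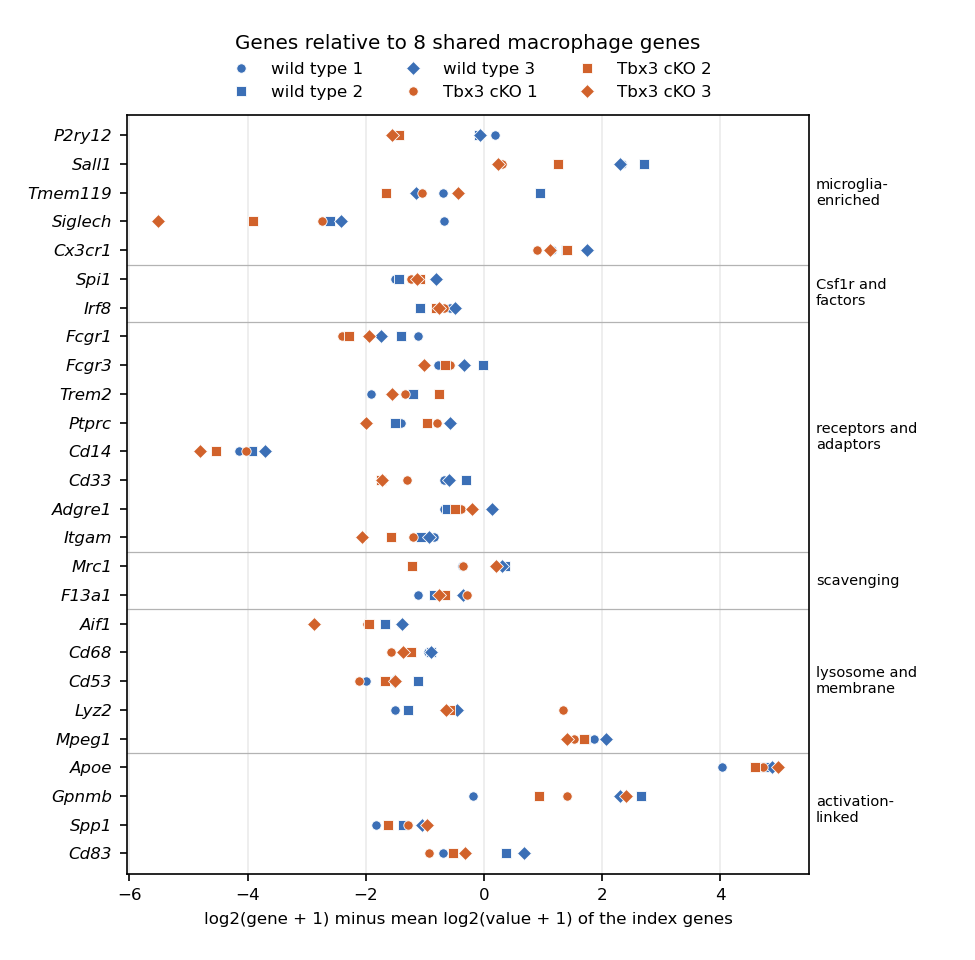
Log2 level of each gene outside the 8 shared macrophage genes, minus the mean log2 level of those 8, in each library (wild type blue, Tbx3 cKO orange). For P2ry12 the wild types sit between -0.08 and 0.18 and the Tbx3 cKO libraries between -1.56 and -1.43, while the colours are mixed for Spi1, Irf8, Trem2 and Adgre1.

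The 3 genes of complement C1q were higher together. C1q is the recognition protein of the classical complement pathway, which macrophages make and with which dying cells and synapses are tagged, and its chains are encoded by C1qa, C1qb and C1qc. C1qa (ENSMUSG00000036887) was 67.2, 90.2 and 102 in the wild types and 292, 273 and 555 in the Tbx3 cKO libraries. C1qb was 66.3, 162 and 191 in the wild types and 318, 489 and 950.5 in the Tbx3 cKO libraries. C1qc was 78.4, 129 and 126 in the wild types and 329, 366 and 763 in the Tbx3 cKO libraries. No Tbx3 cKO library overlapped a wild type in any of them, and Tbx3 cKO 3 was highest in all. Their log2 fold changes were 2.04 (SE 0.33), 2.05 (SE 0.52) and 2.05 (SE 0.37), with limma adjusted p of 0.169, 0.289 and 0.195.

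Csf1r and the factors Spi1 and Irf8 were higher too. Csf1r (ENSMUSG00000024621), the receptor for the survival signals Csf1 and Il34, was 298, 408 and 412 in the wild types and 927, 748 and 1486 in the Tbx3 cKO libraries (log2 fold change 1.45, SE 0.27, limma adjusted p = 0.195). For Csf1r the gap between the highest wild type and the lowest Tbx3 cKO library was wider than the wild-type range. Spi1, which encodes PU.1, was 22.4, 41.3 and 59.2 against 111, 135 and 240.0 (log2 fold change 1.98, SE 0.46, limma adjusted p = 0.281). Irf8, a partner of PU.1 needed for microglia, was 43.9, 52.6 and 74.5 against 164, 163 and 313 (log2 fold change 1.85, SE 0.36, limma adjusted p = 0.209). Both factors kept their groups apart.

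Promoters of 4 genes are shown because Spi1 was higher along with most of the set and because they stand on both sides of the contrast, C1qb, C1qc and Lyz2 among the genes whose groups did not overlap and P2ry12 among those whose groups did. Each run is the 250 bases before the start site, from RefSeq, 5′ to 3′ in the direction of the gene, on build GRCm38.p6. Capitals mark AGGAAGT or its reverse complement, the core to which PU.1 and other ETS factors can bind. All 4 are from the genes with this match, and no promoter without it is shown.

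C1qb, GRCm38.p6 chr4:136886201-136886450, minus strand: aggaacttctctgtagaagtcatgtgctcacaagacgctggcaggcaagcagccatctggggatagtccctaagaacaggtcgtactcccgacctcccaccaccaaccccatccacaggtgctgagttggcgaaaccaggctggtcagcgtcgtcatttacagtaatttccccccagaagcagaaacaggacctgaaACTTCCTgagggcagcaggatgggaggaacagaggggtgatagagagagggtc
C1qc, GRCm38.p6 chr4:136892915-136893164, minus strand: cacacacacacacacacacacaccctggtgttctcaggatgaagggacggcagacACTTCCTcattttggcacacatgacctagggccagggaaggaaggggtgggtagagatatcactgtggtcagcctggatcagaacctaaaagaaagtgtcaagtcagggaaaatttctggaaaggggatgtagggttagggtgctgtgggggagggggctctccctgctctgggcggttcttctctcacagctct
Lyz2, GRCm38.p6 chr10:117282273-117282522, minus strand: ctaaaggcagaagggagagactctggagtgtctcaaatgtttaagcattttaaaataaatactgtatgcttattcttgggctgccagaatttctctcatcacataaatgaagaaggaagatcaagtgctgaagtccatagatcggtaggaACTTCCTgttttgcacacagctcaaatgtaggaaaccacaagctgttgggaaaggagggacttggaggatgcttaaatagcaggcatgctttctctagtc
P2ry12, GRCm38.p6 chr3:59262986-59263235, minus strand: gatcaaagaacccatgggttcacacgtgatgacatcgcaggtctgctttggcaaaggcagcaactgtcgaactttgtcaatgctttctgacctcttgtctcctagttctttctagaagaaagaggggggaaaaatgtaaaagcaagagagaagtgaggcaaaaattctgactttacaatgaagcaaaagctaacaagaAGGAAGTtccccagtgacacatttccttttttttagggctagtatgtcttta

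The match lay 47 to 53 bases before the start site in C1qb, 189 to 195 in C1qc, 94 to 100 in Lyz2 and 46 to 52 in P2ry12. Promoters were found for 26 of the 34 genes, and 10 of the 26 (38.5%) held AGGAAGT on either strand, against 8.8% of 27025 genes. The 4 promoters shown are all among these 10, so they do not stand for the 26. This short form was chosen after the promoters had been seen. The longer GAGGAAGT, which contains it, was in 2 of 26 (C1qc and Spp1) against 2.79% of all genes. The form GGAANNGAA, for pairs of ETS and IRF factors, was in 1 of 26 (Gpnmb) against 8.01%, and TCANGTGA, for MITF and TFE factors, in 1 of 26 (Siglech) against 3.98%. Genes with several listed start sites counted once, and these are matches of letters in a window, with no binding measured.

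Receptors and their adaptors, with which macrophages sense antibodies, lipids and cell debris, were higher in most cases. Of the 9 counted, 7 were higher at an unadjusted p under 0.05 by limma, where 6.39% of all genes were. In 8 every Tbx3 cKO library lay above every wild type, against 10.6% of all genes. Fcer1g, the signalling chain of Fc receptors, was 10.3, 26.3 and 10.8 in the wild types and 88.7, 71.7 and 138 in the Tbx3 cKO libraries (log2 fold change 2.66, SE 0.49, limma adjusted p = 0.195). Its wild-type values rest on few reads, and the lowest on an estimated 11. Trem2, a receptor for lipids of dying cells that signals through Tyrobp, was 16.8, 48.9 and 35.0 against 103, 169.5 and 179 (log2 fold change 2.21, SE 0.46, limma adjusted p = 0.228).

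Ptprc, the CD45 phosphatase of all white blood cells, was 24.3, 39.5 and 70.0 in the wild types and 151, 147 and 133 in the Tbx3 cKO libraries (log2 fold change 1.79, limma adjusted p = 0.279). It was among the few genes in which Tbx3 cKO 3 was not the highest library. Itgam, the CD11b integrin chain, was 36.4, 53.5 and 54.7 against 114, 95.6 and 125 (log2 fold change 1.21, limma adjusted p = 0.289). The other 6, which are Fcgr1, Fcgr3, Tyrobp, Cd14, Cd33 and Adgre1, had log2 fold changes between 0.81 for Cd33 and 1.90 for Adgre1, the F4/80 antigen. Cd33, an inhibitory lectin, overlapped between the groups, with Tbx3 cKO 2 (85.3) under wild type 2 (91.1). Cd14, the co-receptor for bacterial lipopolysaccharide, was low throughout, at 2.8, 6.58 and 7.18 in the wild types and 15.1, 11.4 and 17.9 in the Tbx3 cKO libraries.

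All 7 genes of lysosomes and of the macrophage membrane had an unadjusted p under 0.05 on the higher side, and none overlapped between the groups. Over all genes tested, 6.39% had such a p and 10.6% lay higher without overlap. Ctss, a lysosomal protease of antigen-presenting cells, was 136, 165 and 152 in the wild types and 326, 413 and 442 in the Tbx3 cKO libraries. Both groups were narrow, and the log2 fold change of 1.36 had the smallest standard error of the set (SE 0.19, limma adjusted p = 0.111). Mpeg1, which forms pores in engulfed microbes, was 242, 374 and 442 against 754, 935 and 1407 (log2 fold change 1.54, limma adjusted p = 0.209). Laptm5, a lysosomal membrane protein of blood cells, was 119, 163 and 187 against 403, 381 and 870.5 (log2 fold change 1.73, limma adjusted p = 0.224). Aif1, Cd68 and Cd53 had log2 fold changes of 1.10, 1.40 and 1.65.

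Lyz2, the lysozyme of macrophages and neutrophils, had the largest log2 fold change among the 33 (3.0, SE 0.58, limma adjusted p = 0.202). It was 22.4, 46.0 and 75.8 in the wild types and 662, 192 and 340.1 in the Tbx3 cKO libraries, so that Tbx3 cKO 1 was highest. Of 8 neutrophil genes, S100a8, S100a9, Camp, Ltf and Ngp were highest in the same library, and Mpo, Elane and Prtn3 in Tbx3 cKO 3. The values of Ngp and S100a9 are given by library as genes chosen after they had been seen. Ngp was 3.73, 0.94 and 0 in the wild types and 497, 2.28 and 10.5 in the Tbx3 cKO libraries, where a value of 0 in wild type 3 allows up to 2.69. S100a9, of neutrophils and monocytes, was 1.87, 2.82 and 0 against 1039, 29.6 and 161. The summed level of the 8 neutrophil genes in the table was 78.2 to 197 in the wild types and 257 to 3057 in the Tbx3 cKO libraries. Of the 4 that passed the filter, S100a8 and S100a9 did so through Tbx3 cKO alone, and neither Mpo nor Prtn3 was higher at an unadjusted p under 0.05. The part of neutrophils in the Lyz2 difference was not tested.

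Of F13a1 and Mrc1, which mark macrophages at vessels and tissue borders, F13a1 was higher in Tbx3 cKO and Mrc1 overlapped between the groups. F13a1, a chain of clotting factor XIII, was 29.9, 62.9 and 81.6 in the wild types and 216, 181 and 312 in the Tbx3 cKO libraries (log2 fold change 2.08, SE 0.42, limma adjusted p = 0.220). Its groups did not overlap. Mrc1, the mannose receptor CD206, was 50.4, 146 and 129 against 206, 124 and 614 (log2 fold change 1.34, 95% interval -0.20 to 2.88). Tbx3 cKO 2 lay below wild type 2 and 3, and without wild type 1 and Tbx3 cKO 3 the log2 fold change was 0.22.

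The last group, Apoe, Gpnmb, Spp1 and Cd83, is linked to activated or lipid-laden macrophages but is also made by other cells. Apoe, a lipid carrier also made by glia and progenitors, was 1094, 3111 and 3096 in the wild types and 6919, 6903 and 16771 in the Tbx3 cKO libraries (log2 fold change 2.08, SE 0.50, limma adjusted p = 0.285). Spp1, osteopontin, was 17.7, 43.2 and 50.2 against 107, 92.2 and 269 (log2 fold change 2.0, SE 0.56, limma adjusted p = 0.318). Neither gene overlapped between the groups.

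Gpnmb, a melanosomal and lysosomal glycoprotein, was 57.9, 715 and 521 in the wild types and 692, 548 and 2824 in the Tbx3 cKO libraries. It overlapped between the groups, with wild type 2 above Tbx3 cKO 1 and 2, and its log2 fold change of 1.87 (interval -0.55 to 4.29) was 0.014 without wild type 1 and Tbx3 cKO 3. Wild type 1 was also the lowest library in all 10 pigment cell genes, and Tbx3 cKO 3 the highest in 9 of 10, all but Mlana. Dct, an enzyme of melanin synthesis, was 122, 1002 and 726 in the wild types and 1518, 1129.8 and 6079 in the Tbx3 cKO libraries. The 10 pigment genes summed to 1567 to 10532 against 11974 to 60751. Of the 10, 4 were higher at an unadjusted p under 0.05, where 6.39% of all genes were. The part of pigment cells in the Gpnmb difference was not tested. Cd83, a surface protein of activated antigen-presenting cells, overlapped as well, at 40.1, 148 and 168 against 137, 199 and 423 (log2 fold change 1.17, interval -0.33 to 2.67).

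**Figure D3:**
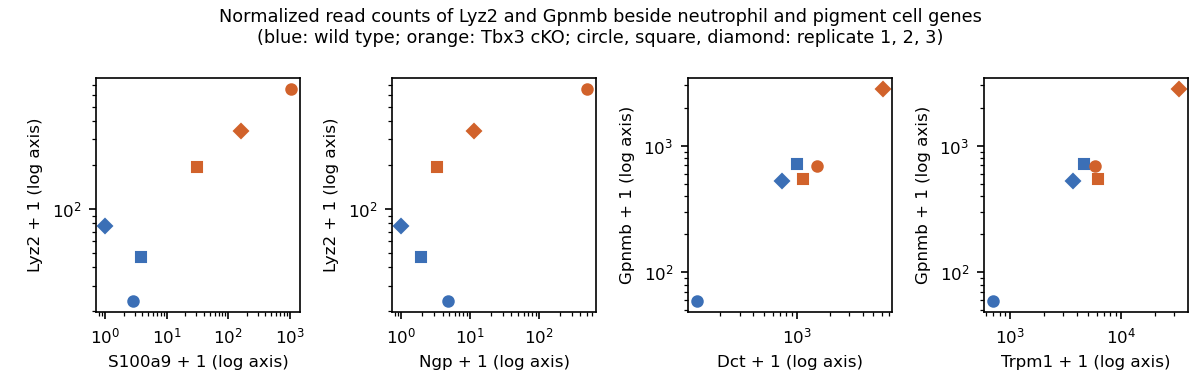
Normalized read counts (both axes log, value + 1) of Lyz2 against the neutrophil genes S100a9 and Ngp, and of Gpnmb against the pigment cell genes Dct and Trpm1, 1 point per library (wild type blue, Tbx3 cKO orange). Tbx3 cKO 1 is highest in Lyz2, S100a9 and Ngp, and for Gpnmb, Dct and Trpm1 wild type 1 is lowest and Tbx3 cKO 3 highest.

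In a further list of 40 macrophage and microglia genes, 38 were found and 36 passed the filter. Ms4a7 and Folr2 passed through Tbx3 cKO alone, and of the other 34 all had a positive log2 fold change, with a median of 1.65. At an unadjusted p under 0.05, 25 of 34 were higher and 0 lower, where 6.39% and 7.16% of all genes were. After adjustment by limma 0 passed. Ncf1, a subunit of the oxidase that makes superoxide, was 44.8, 63.9 and 56.5 in the wild types and 203, 162 and 348 in the Tbx3 cKO libraries (limma adjusted p = 0.177). Unc93b1, which carries Toll-like receptors to endosomes, was 80.3, 129 and 125 against 329.6, 263 and 301 (limma adjusted p = 0.188).

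In 27 of the 34 every Tbx3 cKO library lay above every wild type, against 10.6% of all genes. Those that overlapped included Gpr34, P2ry13, Olfml3, Maf and Coro1a. The genes given next were chosen after their values had been seen, so they show no contrast between kinds of macrophage. Gpr34, a microglial lipid receptor, was 23.3, 51.7 and 26.0 in the wild types and 25.2, 77.4 and 93.7 in the Tbx3 cKO libraries. P2ry13, a neighbour and relative of P2ry12, was 28.9, 54.5 and 51.1 against 36.3, 83.1 and 123. In both, as in Olfml3, Tbx3 cKO 1 lay within the wild-type range while Tbx3 cKO 2 and 3 lay above it, so the groups overlapped. Ms4a7, a gene of border and yolk-sac-derived macrophages, was 0, 7.52 and 7.18 in the wild types and 79.6, 39.8 and 90.5 in the Tbx3 cKO libraries. A value of 0 in wild type 1 allows up to 2.80. Pf4 was 17.7, 71.4 and 71.8 against 143, 181 and 301, and the scavenger receptor gene Stab1 was 129.8, 523 and 397 against 905, 748 and 2403. Neither of these overlapped between the groups. Pf4 is also a platelet gene, and 6 other platelet genes summed to 104 to 233 in the wild types and 332 to 835 in the Tbx3 cKO libraries.

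Signals that act on macrophages were measured in a list of their own. Of 14 ligand genes 11 were found and 7 passed the filter, with a median log2 fold change of 0.17, 2 higher and 1 lower at an unadjusted p under 0.05, and 0 after adjustment by limma. Of all genes, 6.39% were higher and 7.16% lower at that unadjusted p. Tgfb1, which microglia need to mature, was 38.3, 107 and 95.1 in the wild types and 189, 119 and 317 in the Tbx3 cKO libraries (log2 fold change 1.39, limma adjusted p = 0.342). Cd47, the signal that restrains engulfment, was 2388, 1676 and 1804 against 1639.9, 1330.1 and 1325 (log2 fold change -0.44, limma adjusted p = 0.346). Both were without overlap. The other ligand gene higher at that p was Csf1, a ligand of Csf1r, given after its values had been seen. Csf1 was 379, 613 and 627 in the wild types and 825, 670.2 and 866 in the Tbx3 cKO libraries (log2 fold change 0.57, limma adjusted p = 0.357). Its groups did not overlap either. Il34, the other ligand, was not used here. The chemokine genes Ccl2, Ccl3, Ccl12 and Cxcl10, which draw in or are made by activated macrophages, were low, with 21.1 for Ccl3 in Tbx3 cKO 3 as the highest value of the 4.

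Genes for engulfing dying cells had a median log2 fold change of 0.23 over 16, with 1 higher, the lipid exporter Abca1, and 1 lower, the engulfment receptor Megf10, at an unadjusted p under 0.05, and 0 after adjustment by limma. The unadjusted shares over all genes were 6.39% higher and 7.16% lower, and these counts lay near them. Megf10, which is also made by neurons and glia, was 407, 261 and 169 in the wild types and 117, 69.4 and 152 in the Tbx3 cKO libraries (log2 fold change -1.28, limma adjusted p = 0.329). Lysosomal genes made by many cells had a median of 0.52 over 20, all positive, with 9 higher and 0 lower at an unadjusted p under 0.05, and 0 after adjustment by limma. Ctsd, a lysosomal protease, was 3438, 5609 and 5009 against 8648, 10299 and 15538 (log2 fold change 1.28, limma adjusted p = 0.220). Lgmn, the asparagine endopeptidase of lysosomes, was 684, 924 and 790.3 against 1152, 1442 and 2223 (log2 fold change 0.96, limma adjusted p = 0.296). Neither overlapped between the groups.

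Markers of other cells that a dissected retina could hold also varied between these libraries. For the counts that follow, 6.39% of all genes tested were higher and 7.16% lower at an unadjusted p under 0.05. Red blood cell genes summed to 14809 to 50387 in the wild types and 51879 to 376225 in the Tbx3 cKO libraries, with 9 of 10 higher at an unadjusted p under 0.05 and a median log2 fold change of 2.6. Endothelial genes had a median of 1.40, with 5 of 12 higher. They summed to 4377 to 4766 in the wild types and 3995 to 6512 in the Tbx3 cKO libraries, and, without Kdr, the 1 of them with a negative fold change, to 534 to 1950.4 and 1695 to 4155. Genes of mesenchyme around the eye had a median of 1.27, with 0 of 11 higher. Retinal ganglion cell genes summed to 15622 to 84272 in the wild types and 1727 to 9849 in the Tbx3 cKO libraries, with 7 of 10 lower. Retinal progenitor genes, which check the labelled tissue, summed to 127393 to 140487 against 57312 to 119102, with Tbx3 cKO 3 lowest. Of these 10 genes, 3 had a positive log2 fold change and 7 a negative one. At an unadjusted p under 0.05, 1 was higher, Lhx2, and 0 were lower. Lens genes summed to 585 in wild type 1, 648 in Tbx3 cKO 1 and 906 in Tbx3 cKO 3, but to 152223 and 55481 in wild type 2 and 3 and to 108024 in Tbx3 cKO 2. Wild type 1 was lowest and Tbx3 cKO 3 highest in the sums of red blood cell, endothelial (without Kdr) and mesenchyme genes. For ganglion cell genes wild type 1 was highest and Tbx3 cKO 3 lowest. Neutrophil and lens genes followed neither order. The sum of platelet genes was highest in Tbx3 cKO 3, at 835. In wild type 1 it was 183, above the 104 of wild type 2. Of the 183, Gp1bb, named after its values had been seen, made up 163. The other platelet genes were each lowest in wild type 1. Among lymphocyte genes Lck was 58.8 to 78.9 in the wild types and 85.3 to 103 in the Tbx3 cKO libraries, without overlap (limma adjusted p = 0.539). Cd79b passed the filter through Tbx3 cKO alone, at 2.8 to 8.97 against 12.5 to 57.9. Pax5 and Cd8a went the other way. Pax5 had a log2 fold change of -1.1 (limma adjusted p = 0.51), and its groups overlapped. Cd8a was 3.59 to 7.47 in the wild types and 0 to 2.28 in the Tbx3 cKO libraries, without overlap but on few reads. Cd4 overlapped between the groups, and Cd8a and Cd4 were each at 0 in at least 1 library. The part of blood, lymphocytes, vessels, lens and surrounding tissue in the difference in macrophage genes was not tested.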

How the data were processed

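Polyadenylated RNA of 6 libraries was sequenced, 3 per genotype, grouped by title. The submitters' processing notes name STAR 2.7.8a, cutadapt 4.2, Partek and GRCm39. The sources used here give no counter, annotation, strand setting or scaling method. The values that the authors deposited are a signal, normalized read counts. They were taken here as reads divided by 1 factor per library, which the sources do not state. Their low values fall mostly on multiples of 0.897 to 1.14, from which reads were estimated, but only 75.9 to 78.5% of them lay within 0.02 steps of a whole multiple, so no count test was run. A listed 0 can hide up to 3 reads (2.69 to 3.41 normalized), for counting error only.

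Genes at 10 or more in no fewer than 3 libraries were compared by limma-trend (limma 3.58.1, R 4.3.3) on log2(value + 1), two-sided, with Benjamini-Hochberg adjustment over 18914 genes and a threshold of 0.05. This scale understates fold changes of low genes. The labels name no batch. The fit was tested on simulated counts that gave all genes the same spread and no shift shared by a set of genes. That test does not cover variation such as that of wild type 1 and Tbx3 cKO 3. Single genes were also compared by exact two-sided permutation tests. With embryos not identified per library, p-values describe only the variation among these 6 libraries, which may be technical.

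The genes, roles and lists of 195 other genes (178 matched by symbol) were chosen with earlier results of these data known. Values by library are given for all genes of the microglia, C1q, Csf1r, border and activation groups, the 4 of smallest p in the other groups and up to 2 by p from other lists, beside genes that the text names as chosen after their values were seen. The RefSeq promoters, matched by symbol, are on GRCm38.p6, not on the build of the table.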

Additional observations from a re-analysis of the deposited data

How the results depend on the processing

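The count of genes higher at an unadjusted p under 0.05 was 22 to 27 of 33 over the alternatives tried (pseudocount, no filter, scaling, replicate block, prior variance, library weights and libraries left out), and 24 of 32 with a filter on a mean of at least 50. In these fits 3.87 to 7.55% of all genes tested were higher at that p. With library weights 1 gene passed the adjusted threshold, Ctss (limma adjusted p = 0.0358), where 55 of 18914 genes did, and 1 did without wild type 1 and Tbx3 cKO 3, Apoe, where 42 of 19148 genes did and the median log2 fold change was 1.02. Leaving out 1 library at a time gave medians of 1.29 to 1.90 and no gene past the threshold. With a replicate block 27 genes were higher at an unadjusted p, where 7.12% of all genes were, and 0 passed after adjustment. Same-numbered libraries deviated together by correlations of 0.33, 0.018 and 0.0424, so the numbers were not taken as pairs. No scaling moved the median of all genes by over 0.1. P2ry12 relative to the 8 shared genes was -1.55 to -1.42 with 1 library left out, -1.39 without wild type 1 and Tbx3 cKO 3, and -1.08 relative to Csf1r alone. Signs turned for genes near 0, and the cause was not tested. Sall1 was -0.18 with library weights, -0.40 without wild type 1 and Tbx3 cKO 3, and -0.27 to 0.36 with 1 library left out. Siglech was 0.24, 0.51 and -0.75 to 0.13 in the same fits. P2ry12 turned to -0.066 without wild type 1 and Tbx3 cKO 3. Of 573 alternative values of single genes, 561 kept their direction and side of the threshold. Genes under about 20 normalized reads, such as Cd14 and wild-type Fcer1g, are limited by counting error.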
